A study of Mus musculus with 12 samples.

Results

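The transcripts followed here encode the proteins that carry iron into mitochondria and build iron-sulfur clusters there. They are 8 genes of the 55487 listed: the iron importers Slc25a37 and Slc25a28, and the assembly factors Nfs1, Iscu, Hscb, Glrx5, Isca1 and Isca2. Members were chosen by name, for these functions, and all 8 were among the 13535 genes with enough counts to be tested. RNA sequencing was carried out on primary mouse hepatocytes in culture, in 4 groups of 3 libraries. Control cells received nothing, and the FAC group received FAC alone. The labels do not spell out FAC; in work on iron the abbreviation usually stands for ferric ammonium citrate. The Lip-1+FAC group was pretreated on culture day 2 with liproxstatin-1, a scavenger of lipid reactive oxygen species (ROS) per the labels, before FAC was added. The MT+FAC group was pretreated on the same day with Mito-TEMPO, a scavenger of mitochondrial ROS per the labels, before the same FAC step. No group received a scavenger without FAC, so the effect of a scavenger on its own cannot be told apart from its effect on FAC-treated cells. Strain, genotype and age of the mice are not stated in the labels used here, and neither is whether replicates came from separate animals or cultures. P-values therefore measure only the spread between these libraries, which may be technical. Libraries held 22991598 to 31683376 gene counts, apart from FAC replicate 2 with 52529278, whose file is marked as combined.

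Iron-sulfur clusters are small inorganic cofactors used by the respiratory chain, by aconitase, by lipoate synthesis and by enzymes of DNA repair and translation. In mitochondria, iron brought in by the mitoferrins meets sulfur released from cysteine on a scaffold protein. A chaperone system then moves the new cluster to a glutaredoxin, and late-acting carriers pass it on to the client proteins. Hepatocytes are the main iron-storing cells of the liver and are rich in mitochondria.

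In FAC against control, 7 of the 8 genes passed the test, beside 36.6% of all genes tested (edgeR's quasi-likelihood test, Benjamini-Hochberg adjusted p under 0.05). On leaving out 1 library at a time, 3 to 7 passed, the 3 without FAC replicate 1. Slc25a37 and Glrx5 rose, and Nfs1, Iscu, Hscb, Isca1 and Isca2 fell. The median log2 fold change of the 8 genes was -0.21, beside -0.01 over all genes tested. With a scavenger before FAC, Nfs1 was higher than with FAC alone under either compound. Glrx5 was lower and Slc25a28 higher with Mito-TEMPO than with FAC alone. Slc25a37 was above control in all 3 groups that received FAC. Libraries did not overlap between groups for 6 of the 8 genes in FAC against control, beside 46.2% of all genes tested. Against control this held for 4 genes with Lip-1+FAC and 4 with MT+FAC, beside 43.3% and 38.2% of all genes. Against FAC alone it held for 3 and 4 genes, beside 50.8% and 52.9%. In bulk libraries, fewer cells of a type and less RNA per cell cannot be told apart. The plot of normalized counts by group shows these patterns.

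**Figure D1:**
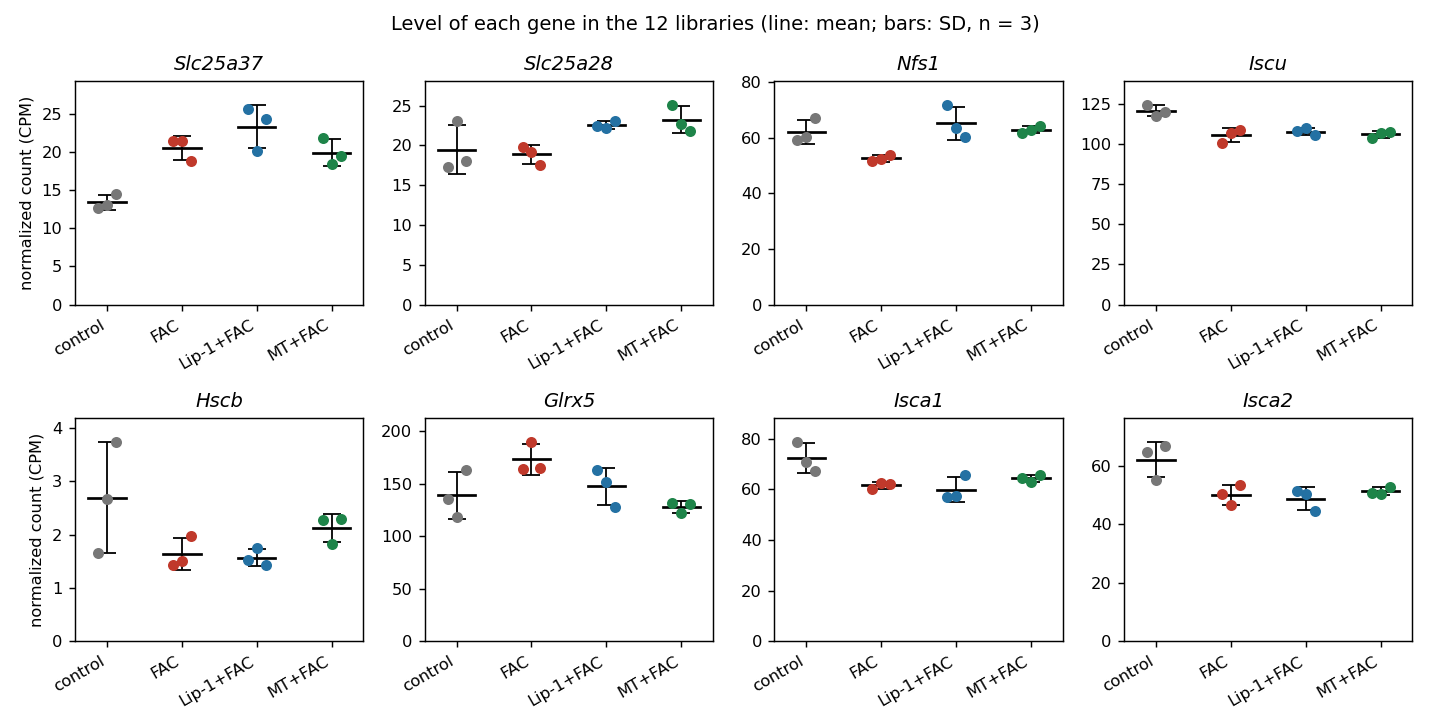
Normalized counts (CPM, counts scaled to a common library size; linear axes from 0) of the 8 genes in the 4 groups. Points are libraries, horizontal lines are means and bars are SD (n = 3). Slc25a37 lies between 12.6 and 14.5 CPM in the control libraries and between 18.3 and 25.5 CPM in all others, whereas Nfs1 is lowest in the FAC libraries.

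RefSeq promoter sequences of build GRCm38.p6, running from 250 bases before to 50 bases after the start site, were matched for 5 of the 8 genes: Slc25a28, Nfs1, Glrx5, Isca1 and Isca2. Those of Nfs1, Isca1 and Isca2 are shown because these assembly genes fell together with FAC and because a searched motif was found in each. They lie at chr2:156144137-156144436 (minus strand), chr13:59769740-59770039 (minus strand) and chr12:84773020-84773319 (plus strand). Capitals mark matches, on either strand, to the motif of ETS family factors (CCGGAAG), the antioxidant response element (TGACNNNGC) and the core motif of nuclear respiratory factor NRF1 (GCGC, then any 2 bases, then GCGC).
Nfs1: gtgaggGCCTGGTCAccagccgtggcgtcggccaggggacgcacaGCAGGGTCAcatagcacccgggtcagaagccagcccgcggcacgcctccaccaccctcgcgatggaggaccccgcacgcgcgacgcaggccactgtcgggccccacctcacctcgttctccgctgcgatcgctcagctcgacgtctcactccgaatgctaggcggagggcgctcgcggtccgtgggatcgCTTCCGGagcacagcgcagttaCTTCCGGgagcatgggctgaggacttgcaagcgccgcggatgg
Isca1: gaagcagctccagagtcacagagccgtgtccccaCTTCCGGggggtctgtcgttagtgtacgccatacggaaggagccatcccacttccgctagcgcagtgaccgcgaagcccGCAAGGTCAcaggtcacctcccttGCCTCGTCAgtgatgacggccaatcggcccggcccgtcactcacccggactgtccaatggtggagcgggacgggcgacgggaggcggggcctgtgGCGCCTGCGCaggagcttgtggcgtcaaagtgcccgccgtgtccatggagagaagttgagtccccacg
Isca2: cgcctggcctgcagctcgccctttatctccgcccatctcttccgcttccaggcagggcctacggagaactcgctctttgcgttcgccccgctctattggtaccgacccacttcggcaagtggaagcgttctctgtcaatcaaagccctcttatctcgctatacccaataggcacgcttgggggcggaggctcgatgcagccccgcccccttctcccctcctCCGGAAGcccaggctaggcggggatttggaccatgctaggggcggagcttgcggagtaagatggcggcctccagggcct

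The ETS motif was found in 3 of the 5 promoters searched and in 8.86% of the 32851 RefSeq promoters of the same length. The 3 are those shown, which were picked for holding a motif. In Nfs1 it began at positions -15 and 8 from the start site, in Isca1 at -216 and in Isca2 at -29. The antioxidant response element began at -244 and -205 in Nfs1 and at -137 and -113 in Isca1, and was present in 12.4% of all promoters. The NRF1 core began at -18 in Isca1 and was present in 6.23% of all promoters. The E-box CACGTG, present in 7.15% of all promoters, was not found in these windows. The Glrx5 and Slc25a28 promoters held none of the 4 motifs in the same window. A match is a string of letters and not evidence of binding, and no 2 of these motifs overlapped in the sequences shown.

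Slc25a37 encodes mitoferrin-1, a carrier of the inner mitochondrial membrane known for iron import in developing red cells. It lies on chromosome 14 (69241848 to 69285112, minus strand, GRCm38, ENSMUSG00000034248). Control replicates 1 to 3 held 12.6, 13.1 and 14.5 CPM of Slc25a37. With FAC its level was 21.4, 21.4 and 18.7 CPM. Every FAC library was thus above every control library. With Lip-1+FAC the Slc25a37 level was 25.5, 20.1 and 24.2 CPM. With MT+FAC it was 21.8, 18.3 and 19.5 CPM. The groups with a scavenger overlapped with FAC alone and did not overlap with control. Against control, Slc25a37 was 1.54-fold higher with FAC (log2 fold change 0.62, SE 0.111, edgeR adjusted p = 0.000279). It was 1.74-fold higher with Lip-1+FAC (log2 0.80, SE 0.111, edgeR adjusted p = 3.23e-05), a comparison in which 30.2% of all genes were called. With MT+FAC it was 1.49-fold higher (log2 0.57, SE 0.111, edgeR adjusted p = 0.00165), where 19.8% of all genes were called. These comparisons share the control libraries. Each passed the test under every alternative tried, with log2 fold changes from 0.52 to 0.68, 0.61 to 0.90 and 0.41 to 0.63. Against FAC alone, Slc25a37 had a log2 fold change of 0.18 (SE 0.108) with Lip-1+FAC and of -0.05 (SE 0.108) with MT+FAC, with edgeR adjusted p-values of 0.198 and 0.757. Antisense genes overlap 6.33% of its exonic bases, and without strand their reads cannot be told apart. The protein-coding gene model Gm16867 shares 382 bases with a Slc25a37 transcript at 100% identity, and Gm37847 and Gm31748 share 381 bases. Gm31748 is among those antisense genes, so that its shared bases may be the same overlap. Reads from shared bases may be left uncounted.

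Because mitoferrin-1 is known from red cells, erythroid markers were read in the same libraries. Of 7 such markers, 6 were under 1 CPM in every library, with the globin gene Hbb-bt at 0 throughout. The remaining marker, Alas2, the erythroid enzyme that starts heme synthesis, lay at 7.18 to 8.50 CPM in control, 7.50 to 12.8 CPM with FAC, 5.06 to 6.26 CPM with Lip-1+FAC and 4.81 to 6.86 CPM with MT+FAC. The FAC range of Alas2 overlapped with control and reached above it, and the part of this gene's cells in the Slc25a37 result was not tested.

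Slc25a28 encodes mitoferrin-2, the mitoferrin known from most other tissues, and lies on chromosome 19 (43663801 to 43674881, minus strand, ENSMUSG00000040414). In control its level was 17.3, 23.0 and 18.0 CPM. In the FAC libraries it was 19.8, 19.2 and 17.6 CPM, inside the control range. In the Lip-1+FAC libraries it was 22.4, 22.2 and 23.1 CPM, and with MT+FAC 25.1, 22.7 and 21.8 CPM. Both scavenger groups lay above every FAC library and overlapped with control. Slc25a28 did not pass in FAC against control (log2 -0.04, SE 0.107, edgeR adjusted p = 0.782). It was 1.23-fold higher with MT+FAC than with FAC alone (log2 0.30, SE 0.106, edgeR adjusted p = 0.0309), in a comparison that called 40.9% of all genes. That call was lost without FAC replicate 2 (log2 0.31), FAC replicate 3 (0.25), MT+FAC replicate 1 (0.23) or MT+FAC replicate 2 (0.30), and with offsets for GC content and length (0.23). With Lip-1+FAC against FAC alone its log2 fold change was 0.26 (SE 0.106) and missed the threshold with an edgeR adjusted p of 0.062, in a comparison that called 39.9% of all genes. It was called there when only those 2 groups were fitted (log2 0.25, edgeR adjusted p = 0.0482). Against control, neither scavenger group was called, with log2 fold changes of 0.21 (Lip-1+FAC) and 0.25 (MT+FAC). Without control replicate 2, the highest control library, both were called, at 0.36 and 0.40.

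Per kilobase of the principal transcript, Slc25a37 stood at 0.268, 0.208 and 0.295 of the Slc25a28 level in the control libraries. With FAC alone that ratio was 0.398, 0.410 and 0.392, above every control library. It was 0.419, 0.333 and 0.385 with Lip-1+FAC and 0.320, 0.297 and 0.329 with MT+FAC. Per kilobase of principal transcript, mitoferrin-2 was thus the more abundant in every library. Every library with FAC had a higher ratio than every control library, MT+FAC replicate 2 (0.297) only just above control replicate 3 (0.295). The ratio is given as a description, without a test. Its size rests on the transcript lengths. With the length of all annotated exons, a choice made after seeing the data, the mean levels of Slc25a37 and Slc25a28 were 2.22 and 5.19 CPM per kilobase in control, and 3.41 and 5.03 with FAC alone.

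Nfs1 encodes the cysteine desulfurase, the enzyme that removes sulfur from cysteine for the new cluster. The gene lies on chromosome 2 (156123639 to 156144186, minus strand, ENSMUSG00000027618). Its levels were 59.3, 60.2 and 67.1 CPM in control, and 51.7, 52.3 and 53.9 CPM with FAC. All FAC libraries were below all control libraries. Nfs1 stood at 71.9, 63.6 and 60.4 CPM with Lip-1+FAC. With MT+FAC it stood at 61.8, 62.9 and 64.2 CPM. Both scavenger groups lay above every FAC library and overlapped with control. With FAC, Nfs1 fell by 0.24 on the log2 scale (SE 0.0724, edgeR adjusted p = 0.0137). That call was lost with offsets for GC content and length (log2 -0.15, edgeR adjusted p = 0.101), without control replicate 3 (-0.18) and without FAC replicate 1 (-0.22). Nfs1 was 1.24-fold higher with Lip-1+FAC than with FAC alone (log2 0.31, SE 0.0723, edgeR adjusted p = 0.00221). It was 1.20-fold higher with MT+FAC than with FAC alone (log2 0.26, SE 0.0722, edgeR adjusted p = 0.00817). These comparisons share the FAC libraries, and both calls held in every alternative, with log2 fold changes of 0.24 to 0.37 and 0.21 to 0.28. Against control the log2 fold changes were 0.07 (Lip-1+FAC, SE 0.0723) and 0.02 (MT+FAC, SE 0.0723), with edgeR adjusted p-values of 0.499 and 0.896. The antisense neighbour Romo1 and the gene model Gm28036, on the same strand, overlap 11.2% of the exonic bases of Nfs1. Gm28036 shares 258 bases with it at 100% identity, which may be the same overlap.

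Iscu encodes the scaffold on which the first cluster is put together. It lies on chromosome 5 (113772748 to 113778288, plus strand, ENSMUSG00000025825). Iscu held 124.5, 117.7 and 120.2 CPM in control. The level was 100.7, 107.0 and 109.1 CPM with FAC, 108.0, 110.2 and 105.5 CPM with Lip-1+FAC, and 103.8, 107.0 and 107.5 CPM with MT+FAC. All 9 libraries that received FAC were below all control libraries, and the 3 FAC groups overlapped with each other. Of all genes, 46.2% (FAC), 43.3% (Lip-1+FAC) and 38.2% (MT+FAC) likewise had no overlap with control, in either direction. Iscu fell by 0.19 on the log2 scale with FAC (SE 0.0546, edgeR adjusted p = 0.0096). The call was lost without FAC replicate 1 (log2 -0.16, edgeR adjusted p = 0.0673) and with no filter on low counts (-0.18, edgeR adjusted p = 0.0556). It was lower than control by 0.16 with Lip-1+FAC (SE 0.0548, edgeR adjusted p = 0.0319) and by 0.19 with MT+FAC (SE 0.0547, edgeR adjusted p = 0.0219). Those calls were less stable: they were lost in 10 and 8 of 17 alternatives. Among these were the omission of control replicate 1 (log2 -0.14 and -0.16) or control replicate 3 (-0.16 and -0.19), and of any replicate of the scavenger group (-0.17 to -0.14 with Lip-1+FAC and -0.195 to -0.18 with MT+FAC). With offsets for GC content and length, the values were 0.01 with Lip-1+FAC, on the other side of 0, and -0.06 with MT+FAC. Against FAC alone, Iscu had log2 fold changes of 0.03 (Lip-1+FAC, SE 0.0547, edgeR adjusted p = 0.679) and 0.01 (MT+FAC, SE 0.0546, edgeR adjusted p = 0.937). The former was 0.19 and called (edgeR adjusted p = 0.019) with offsets for GC content and length. A processed pseudogene, Gm16437, shares 98.3% identity with an Iscu transcript over 421 bases, so that some Iscu reads may be left uncounted.

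Hscb encodes the J-domain co-chaperone that brings the loaded scaffold to the mitochondrial heat shock protein for release of the cluster. The gene lies on chromosome 5 (110829070 to 110839777, minus strand, ENSMUSG00000043510). It was the least counted of the 8 genes, with 34 to 95 counts per library. Hscb stood at 1.67, 2.66 and 3.75 CPM in control, so that the control libraries themselves spread widely. Levels were 1.42, 1.51 and 1.98 CPM with FAC, 1.53, 1.75 and 1.44 CPM with Lip-1+FAC and 2.28, 1.82 and 2.29 CPM with MT+FAC. Each group overlapped with control through control replicate 1. Hscb passed the test as lower in FAC against control (log2 -0.73, SE 0.274, edgeR adjusted p = 0.0451) and in Lip-1+FAC against control (log2 -0.78, SE 0.279, edgeR adjusted p = 0.0433). Both calls were lost in 10 of 16 alternatives. Without control replicate 3 the log2 fold changes were -0.42 and -0.46, and without control replicate 2 they were -0.74 and -0.78. Leaving out FAC replicate 1 or 2 gave -0.64 and -0.67, and leaving out any Lip-1+FAC library gave -0.86 to -0.71, none of which passed the test. In MT+FAC, Hscb was not called against control (log2 -0.34, SE 0.271, edgeR adjusted p = 0.401) or against FAC alone (log2 0.38, SE 0.276, edgeR adjusted p = 0.282). The latter was 0.66 and called (edgeR adjusted p = 0.0467) with offsets for GC content and length plus a replicate term. With Lip-1+FAC against FAC alone it was -0.05 and not called.

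Glrx5 encodes the monothiol glutaredoxin that receives the cluster from the scaffold. It lies on chromosome 12 (105032688 to 105042906, plus strand, ENSMUSG00000021102). Control libraries held 135.7, 118.4 and 162.9 CPM of Glrx5, and FAC libraries 164.4, 190.2 and 165.2 CPM. The lowest FAC library was just above the highest control library. Glrx5 stood at 163.1, 151.4 and 128.3 CPM with Lip-1+FAC and at 132.2, 121.8 and 130.6 CPM with MT+FAC. Both scavenger groups lay below every FAC library and overlapped with control. With FAC, Glrx5 rose 1.25-fold (log2 0.32, SE 0.109, edgeR adjusted p = 0.0354), alone among the 6 assembly genes to be called higher. That call was lost in 5 of 17 alternatives: without control replicate 1 (log2 0.30), control replicate 2 (0.22) or FAC replicate 2 (0.25), with upper-quartile scaling (0.30) and with a term for replicate number (0.32). With MT+FAC, Glrx5 was at 0.739 times its level with FAC alone (log2 -0.44, SE 0.109, edgeR adjusted p = 0.0063). This call held in all 17 alternatives, at -0.53 to -0.36. Glrx5 was not called in Lip-1+FAC against FAC alone (log2 -0.23, SE 0.109, edgeR adjusted p = 0.109), except with no filter on low counts (-0.23, edgeR adjusted p = 0.00447). Neither scavenger group was called against control (log2 0.09 and -0.12, SE 0.110 for both).

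Isca1 and Isca2 encode A-type carriers that act together late in the pathway to make the 4Fe-4S clusters of aconitase, lipoate synthase and the respiratory chain. Isca1 lies on chromosome 13 (59755409 to 59769810, minus strand, ENSMUSG00000044792) and Isca2 on chromosome 12 (84773251 to 84775088, plus strand, ENSMUSG00000021241). Isca1 was at 78.9, 70.9 and 67.1 CPM in control and at 60.1, 62.5 and 62.0 CPM with FAC. With Lip-1+FAC it was at 56.8, 57.2 and 65.6 CPM, and with MT+FAC at 64.3, 63.0 and 65.9 CPM. All libraries with FAC were below all control libraries, and the MT+FAC libraries were just above those with FAC alone. Isca1 fell by 0.23 with FAC on the log2 scale (SE 0.0724, edgeR adjusted p = 0.0177). The call was lost without control replicate 1 (log2 -0.16), without FAC replicate 1 (-0.21) and when only those groups were fitted (-0.21). With Lip-1+FAC Isca1 was lower than control by 0.27 (SE 0.0727, edgeR adjusted p = 0.00874), a call lost without control replicate 1 (-0.20) or Lip-1+FAC replicates 1 (-0.23) or 2 (-0.24). With MT+FAC its log2 fold change against control was -0.17 (SE 0.0724, edgeR adjusted p = 0.115), and -0.23 and called with offsets for GC content and length. The antisense gene Etohd2, which overlaps Isca1, shares 257 bases with an Isca1 transcript at 100% identity.

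Isca2 was at 64.5, 55.1 and 66.5 CPM in control and at 50.3, 46.4 and 53.4 CPM with FAC. With Lip-1+FAC it was at 51.3, 50.4 and 44.3 CPM, and with MT+FAC at 50.7, 50.2 and 52.8 CPM. As for Isca1, no library with FAC reached the lowest control library. Isca2 fell by 0.31 with FAC (SE 0.0823, edgeR adjusted p = 0.00612) and was lower than control by 0.35 with Lip-1+FAC (SE 0.0827, edgeR adjusted p = 0.00387). Both calls held in every alternative, at -0.39 to -0.25 and -0.42 to -0.28. With MT+FAC the difference from control was -0.28 (SE 0.0825, edgeR adjusted p = 0.0244). It was lost in 7 of 17 alternatives, among them the omission of control replicate 1 (-0.24), control replicate 3 (-0.22) or any MT+FAC replicate (-0.30 to -0.26). Against FAC alone, Isca1 had log2 fold changes of -0.04 (Lip-1+FAC, SE 0.0726) and 0.06 (MT+FAC, SE 0.0723). Isca2 had -0.04 (SE 0.0827) and 0.04 (SE 0.0824). None of these 4 values passed the test, with edgeR adjusted p-values of 0.503 to 0.760.

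**Figure D2:**
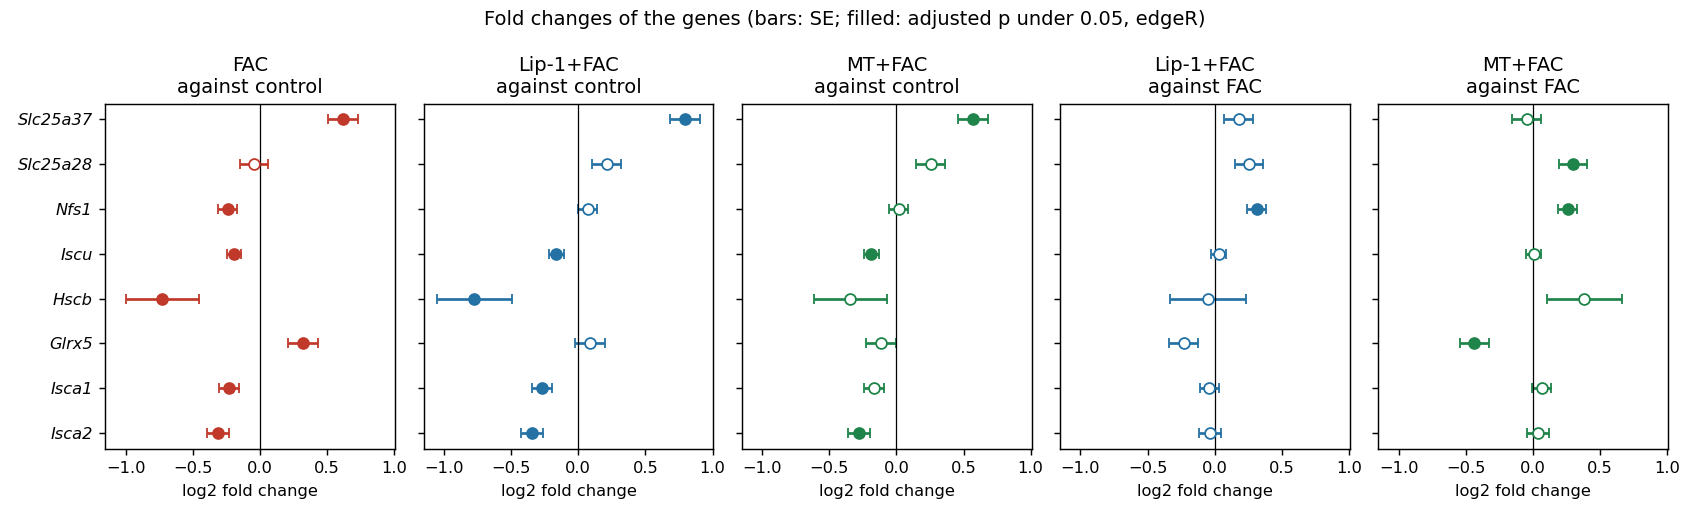
Log2 fold changes of the 8 genes in 5 comparisons (x axis, log2 scale; bars are SE; filled points passed edgeR's test at an adjusted p under 0.05). Slc25a37 is filled on the right in all 3 comparisons with control, and Nfs1 is filled on the left with FAC and on the right in both comparisons with FAC alone.

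Counted over the 8 genes, 1 was called higher and none lower in Lip-1+FAC against FAC alone, where the median log2 fold change was -0.0022 and that of all genes 0.00063. In MT+FAC against FAC alone, 2 were called higher and 1 lower, with a median of 0.05. Both shares, 12.5% and 37.5%, lie below the 39.9% and 40.9% of all genes called in those comparisons. In Lip-1+FAC against control 1 was called higher and 4 lower (median -0.05), 62.5% of the members beside 30.2% of all genes, and the number called was 2 without Lip-1+FAC replicate 1 and 3 without control replicate 1 or 3 or Lip-1+FAC replicate 2 or 3. In MT+FAC against control 1 was higher and 2 lower (median -0.14), 37.5% beside 19.8%, and the number called was 1 without control replicate 1 or 3 or any MT+FAC replicate. Between the scavengers, MT+FAC against Lip-1+FAC, edgeR called 0 of the 8 genes, beside 1.34% of all genes. There, 0 had an unadjusted p under 0.05 and DESeq2 called 0 as well. The smallest unadjusted p was 0.0512, for Slc25a37, which had a log2 fold change of -0.23 (SE 0.108) between the scavengers. For Hscb that value was 0.43 (SE 0.281) and for Glrx5 -0.20 (SE 0.110). The remaining 5 genes lay between -0.05 and 0.10. No call between the scavengers does not show that the levels are equal.

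Per kilobase of the principal transcript, the levels in control ran from Iscu (126.2 CPM per kilobase, range 123.0 to 130.1) through Isca2 (70.3, 62.4 to 75.4), Glrx5 (47.5, 40.5 to 55.7), Isca1 (37.2, 34.6 to 40.6), Nfs1 (30.3, 28.9 to 32.7) and Slc25a28 (12.7, 11.3 to 15.0) to Hscb (3.35, 2.07 to 4.66) and Slc25a37 (3.21, 3.03 to 3.47). Glrx5 and Isca1 overlapped at the edge of their ranges. The Slc25a37 range lay inside that of Hscb, so that the order of this pair in control was not resolved. The scaffold transcript was thus the most abundant, and the importers and the co-chaperone the least. With FAC alone Slc25a37 rose to 4.92 CPM per kilobase (4.49 to 5.14), above Hscb at 2.04 (1.77 to 2.46). Glrx5 at 59.2 (56.2 to 65.0) and Isca2 at 56.7 (52.5 to 60.5) then overlapped. With the length of all annotated exons in place of the principal transcript, a choice made after seeing the data, Glrx5 came before Isca2 and Nfs1 before Isca1 in control. Those exons add up to 10680 bases for Isca1, whose principal transcript has 1942.

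**Figure D3:**
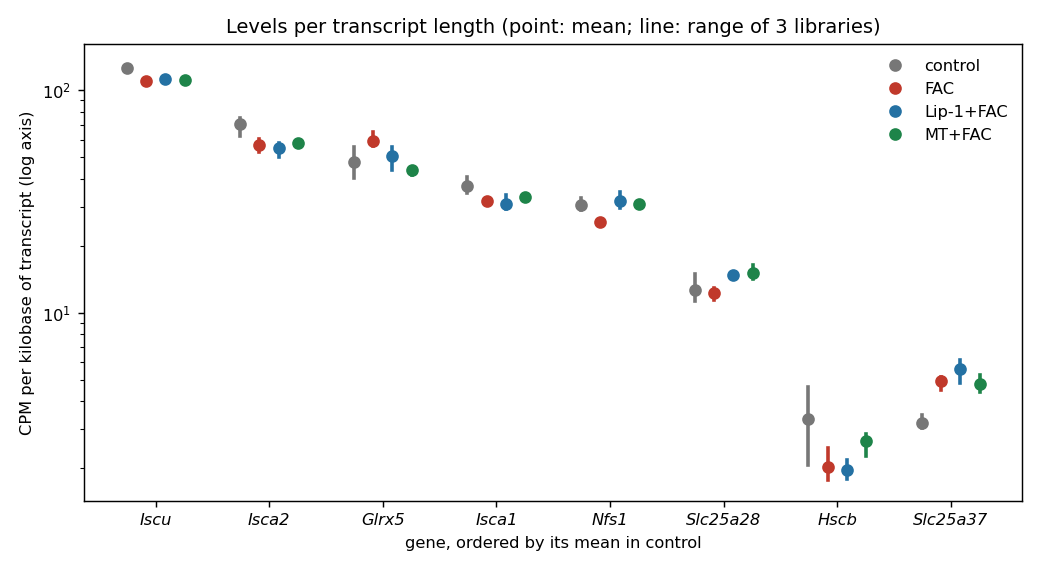
Levels of the 8 genes per kilobase of principal transcript (y axis, CPM per kilobase, log scale), ordered by their control mean. Points are group means and lines the range of 3 libraries. Iscu is highest in every group, and Slc25a37, inside the range of Hscb in control, lies above it in the 3 groups with FAC.

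Other genes followed some of these patterns closely over the 12 libraries. As a description, the Pearson correlation of log2 CPM was taken against 8999 protein-coding genes with a mean of at least 5 CPM. The points share 4 treatments, so that any gene moved by FAC can score high. Slc25a37 was followed most closely by Slc6a6, the taurine transporter (r = 0.966), the secreted protease Adamts1 (0.966) and Ndel1 (0.952). Slc25a28 was followed by the natriuretic peptide receptor Npr2 (0.949), Mkrn2 (0.941) and the translation factor Eif4g3 (0.922). For Iscu the closest were Tmem70, an assembly factor of ATP synthase (0.955), Ciao2a, of the cytosolic iron-sulfur targeting machinery (0.952), and the mitochondrial ribosomal protein Mrpl36 (0.950). Nfs1 was closest to Ebpl (0.960), Fbxo22 (0.951) and Cd302 (0.945). Hscb was closest to the DNA repair gene Aptx (0.931), Gm2a (0.928) and Nudt1 (0.896).

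Among the other mitochondrial assembly genes, 15 of the 16 listed were tested. The ferredoxin gene Fdx2, at a mean of 0.03 CPM, was not. Gene models on the same strand overlap 72.7% of its exonic bases, so that its reads may be left uncounted. With FAC, 1 was called higher and 2 lower, and 12 did not pass, so that 20.0% were called beside 36.6% of all genes. Their median log2 fold change was -0.11. Hspa9, the mitochondrial heat shock protein that works with Hscb, rose from 1243 ± 31.4 to 1373 ± 20.7 CPM (SD, n = 3; log2 0.14, SE 0.0503, edgeR adjusted p = 0.0313). Ndufab1, the acyl carrier protein of the desulfurase complex, fell by 0.31 (SE 0.114, edgeR adjusted p = 0.0456), and the late carrier Nfu1 fell by 0.22 (SE 0.0779, edgeR adjusted p = 0.0334). Each of these 3 calls was lost on leaving out any of at least 4 single libraries, with log2 fold changes then from 0.12 to 0.155 for Hspa9 (control replicate 2 or 3, FAC replicate 1 or 2), -0.34 to -0.15 for Ndufab1 (control replicate 1 or 3, FAC replicate 1 or 2) and -0.24 to -0.16 for Nfu1 (any control replicate, FAC replicate 1 or 2). With offsets for GC content and length, Nfu1 was at -0.10 and Ndufab1 at -0.21, neither called, whereas Hspa9 was at 0.27 (edgeR adjusted p = 0.000321).

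Against FAC alone, 1 of these partners was higher and 2 lower with Lip-1+FAC (20.0% beside 39.9% of all genes). With MT+FAC, 0 were higher and 2 lower (13.3% beside 40.9%), and the medians were 0.05 and 0.03. Fdx1, a ferredoxin that supplies electrons, was at 132.0 CPM with FAC, 107.7 CPM with Lip-1+FAC and 103.8 CPM with MT+FAC. It was lower by 0.29 (SE 0.0818, edgeR adjusted p = 0.00832) and 0.35 (SE 0.0818, edgeR adjusted p = 0.00259), the former lost without Lip-1+FAC replicate 3 (-0.22). Bola1, a late-acting partner of Glrx5, was lower by 0.45 with Lip-1+FAC and by 0.41 with MT+FAC (edgeR adjusted p = 0.0212 and 0.0346). With offsets for GC content and length both values shrank to -0.14 and were not called, and both calls were also lost without FAC replicate 2 (-0.38 and -0.33) or FAC replicate 3 (-0.40 and -0.35), without Lip-1+FAC replicate 3 (-0.33) and without MT+FAC replicate 2 or 3 (-0.43 and -0.33). Against control, the partners gave 3 higher and 1 lower with Lip-1+FAC (26.7% beside 30.2%) and 0 higher and 2 lower with MT+FAC (13.3% beside 19.8%). Gfer, a sulfhydryl oxidase linked to iron-sulfur export, was lower than control in both, by 0.30 and 0.31 (edgeR adjusted p = 0.0116 and 0.0162). Without control replicate 3 it was lower by 0.245 and 0.250, without Lip-1+FAC replicate 3 by 0.22 and without MT+FAC replicate 1 by 0.275, all no longer called. With offsets for GC content and length it was lower by 0.155 and 0.215, also not called.

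In the cytosolic assembly machinery, which depends on mitochondria for its sulfur, all 11 listed genes were tested. With FAC, 1 was called higher and 4 lower (median -0.09), 45.5% of the list beside 36.6% of all genes. The targeting complex genes did not move together. Ciao3, Ciao2a and Ciao1 fell by 0.35 (SE 0.0888, edgeR adjusted p = 0.00429), 0.33 (SE 0.0639, edgeR adjusted p = 0.000615) and 0.28 (SE 0.0779, edgeR adjusted p = 0.00973). Mms19, of the same complex, was called higher (log2 0.26, SE 0.0866, edgeR adjusted p = 0.0248), and Ciao2b was not called (log2 0.005, SE 0.115, edgeR adjusted p = 0.979). The call of Ciao1 was lost without control replicate 1 (-0.21) or FAC replicate 2 (-0.23) and with offsets for GC content and length (-0.15). Ciao3 stood at 37.1 CPM in control, 29.0 with FAC, 36.2 with Lip-1+FAC and 37.1 with MT+FAC, and was called higher with either scavenger than with FAC alone (log2 0.32 and 0.35). Ciao2a stood at 74.8, 59.7, 62.3 and 60.0 CPM in the same order, and was lower than control in all 3 groups with FAC. In Lip-1+FAC against FAC alone 3 of the 11 were higher and 1 lower, and in MT+FAC against FAC alone 2 and 2, with medians of 0.04 and 0.01 (36.4% each, beside 39.9% and 40.9% of all genes). The carrier gene Bola2 was lower by 0.51 (SE 0.150, edgeR adjusted p = 0.0151; -0.45 and not called without FAC replicate 3) and by 0.64 (SE 0.150, edgeR adjusted p = 0.00431). The electron donor Ciapin1 was higher with Lip-1+FAC by 0.34 (SE 0.0558, edgeR adjusted p = 0.000117). Against control, 0 of the 11 were higher and 2 lower with Lip-1+FAC (18.2% beside 30.2%), and 0 higher and 3 lower with MT+FAC (27.3% beside 19.8%). Ciao2a was lower than control by 0.26 and 0.32 in these comparisons, the latter call lost (-0.20) when GC content, length and replicate number were all adjusted for. Bola2 was lower than control by 0.49 and 0.62, the former call lost without control replicate 3 (-0.34) or Lip-1+FAC replicate 3 (-0.315) and the latter without MT+FAC replicate 2 (-0.60). At values close to these folds, the former also missed the threshold with adjustment for GC content and length (-0.49), alone or with a replicate term, and with only those groups fitted (-0.49), and the latter with that adjustment plus a replicate term (-0.66). Ciao2b, another targeting gene, was lower with MT+FAC than with FAC alone by 0.36 and than control by 0.35, and was called in neither with offsets for GC content and length (-0.06 and -0.14). The former call was also lost without FAC replicate 3 (-0.24) or MT+FAC replicate 1 or 3 (-0.34 and -0.35), and the latter without control replicate 1 or 3 (-0.36 and -0.23) or any MT+FAC replicate (-0.38 to -0.33).

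Genes of proteins that receive the clusters were listed by compartment. Of 16 mitochondrial iron-sulfur proteins, 0 were called higher and 5 lower with FAC (median -0.16), 31.2% of the list beside 36.6% of all genes. Lipoate synthase (Lias) stood at 52.4 ± 1.35 CPM in control, 41.3 ± 3.29 with FAC, 50.7 ± 1.26 with Lip-1+FAC and 53.4 ± 3.61 with MT+FAC (SD, n = 3). It fell by 0.35 with FAC (SE 0.0737, edgeR adjusted p = 0.00125), in the company of Cdk5rap1, a tRNA-modifying enzyme (-0.40), and Glrx2 (-0.36). Against FAC alone, 3 of the 16 were higher and 2 lower with Lip-1+FAC, and 4 higher and 3 lower with MT+FAC (medians 0.09 and 0.05; 31.2% and 43.8% of the list, beside 39.9% and 40.9%). With MT+FAC, Cdk5rap1 and Lias were higher by 0.47 (SE 0.103, edgeR adjusted p = 0.00156) and 0.37 (SE 0.0735, edgeR adjusted p = 0.000588). Ferrochelatase (Fech), which inserts iron into heme, was higher with Lip-1+FAC by 0.33 (SE 0.0494, edgeR adjusted p = 4.64e-05). Cisd3 was lower than FAC alone by 0.44 and 0.34, and the complex I subunit Ndufs7 was lower with Lip-1+FAC by 0.38 (edgeR adjusted p = 0.00276, 0.014 and 0.00546). With offsets for GC content and length these 3 values were -0.13, -0.04 and 0.025 and none was called. Without FAC replicate 3, Cisd3 with MT+FAC was at -0.215 and not called. Against control, 1 of the 16 was higher and 4 lower with Lip-1+FAC (31.2% beside 30.2%), and 1 higher and 8 lower with MT+FAC, 56.2% of the list beside 19.8% of all genes. Fech was the higher gene in both, by 0.20 and 0.15, but stood at -0.025 and -0.023, not called, with the offsets. With MT+FAC the calls of Fech and Glrx2 (-0.29) were lost in 9 and 6 of 17 alternatives. Both were lost without control replicate 1 or 3 or any MT+FAC replicate. Cisd3 was lower than control by 0.64 with Lip-1+FAC and 0.54 with MT+FAC (SE 0.103 and 0.102). These calls held in every alternative, at -0.70 to -0.41 and -0.60 to -0.32. The complex I subunit Ndufv2 was lower than control by 0.30 and 0.43, the former lost without control replicate 3 (-0.225) or Lip-1+FAC replicate 3 (-0.205). Ndufs7 was lower than control by 0.36 and 0.32, and by 0.09 and 0.095 with the offsets, where it was not called. The former call was also lost without Lip-1+FAC replicate 3 (-0.27), and the latter without control replicate 1 or 3 (-0.30 and -0.26) or any MT+FAC replicate (-0.33 to -0.31).

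Among 19 cytosolic and nuclear iron-sulfur proteins, 1 was called higher and 6 lower with FAC, 36.8% of the list beside 36.6% of all genes. With either scavenger, 9 of the 19 were higher than with FAC alone and 0 were lower, and the medians were 0.32 (Lip-1+FAC) and 0.35 (MT+FAC). The 47.4% called is near the 39.9% and 40.9% of all genes called in those comparisons. Of all genes tested, 20.7% and 21.2% were called higher and 19.2% and 19.7% lower. Both comparisons use the same FAC libraries. Dna2, a helicase and nuclease of DNA replication, stood at 10.7 ± 1.64 CPM in control, 6.02 ± 0.197 with FAC, 12.7 ± 1.26 with Lip-1+FAC and 11.2 ± 0.561 with MT+FAC (SD, n = 3). It fell by 0.83 with FAC (SE 0.130, edgeR adjusted p = 7.99e-05) and was higher by 1.07 and 0.90 with the scavengers. Elp3, the tRNA-modifying subunit of Elongator, fell by 0.46 with FAC and was higher by 0.68 with MT+FAC than with FAC alone (edgeR adjusted p = 0.000513 and 8.7e-06). Dph2, which takes part in making diphthamide, rose by 0.35 with FAC (SE 0.0847, edgeR adjusted p = 0.00332). The aldehyde oxidase Aox3 stood at 23.0 CPM in control, 18.1 with FAC, 40.4 with Lip-1+FAC and 38.6 with MT+FAC. It was above FAC alone by 1.15 and 1.09, and above control by 0.81 and 0.74. Dpyd, which degrades pyrimidines, was higher than FAC alone by 0.66 with Lip-1+FAC (SE 0.0705, edgeR adjusted p = 1.06e-06). Xdh, xanthine dehydrogenase, was above control by 0.65 with Lip-1+FAC and by 0.51 with MT+FAC (edgeR adjusted p = 3.55e-06 and 0.000114). Both calls held in every alternative, at 0.45 to 0.75 and 0.32 to 0.60. Against control, 4 of the 19 were higher and 0 lower with Lip-1+FAC (21.1% beside 30.2%), and 3 higher and 0 lower with MT+FAC (15.8% beside 19.8%).

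**Figure D4:**
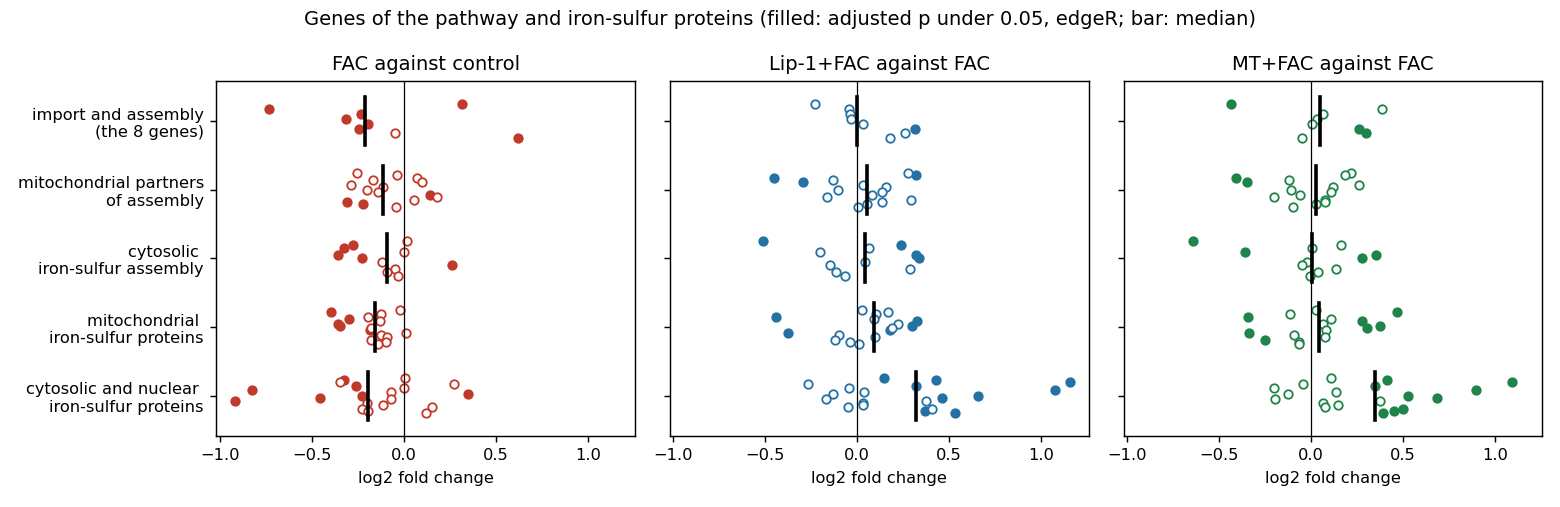
Log2 fold changes (x axis) of single genes (points) in the 8 followed genes and the 4 further lists, in 3 comparisons. Filled points passed edgeR's test at an adjusted p under 0.05 and vertical bars are medians. The cytosolic and nuclear iron-sulfur proteins have medians of 0.32 and 0.35 in the comparisons with FAC alone, and all filled points there lie to the right of 0; 47.4% of that list was called in each, beside 39.9% and 40.9% of all genes.

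Summed over 8 hepatocyte markers, of which Alb makes up most, the level was 16810 to 17280 CPM in control, 16220 to 16850 with FAC, 12660 to 13740 with Lip-1+FAC and 13090 to 14390 with MT+FAC. Single markers differed from the sum. Cps1, of the urea cycle, lay at 1454 to 1889 CPM in control and 542.6 to 805.4 with FAC, and Tat, of tyrosine breakdown, at 63.8 to 75.7 and 34.7 to 41.4. Cyp2e1 lay at 305.2 to 392.9 CPM in control, 387.4 to 517.4 with FAC, 128.4 to 154.6 with Lip-1+FAC and 145.4 to 176.3 with MT+FAC. Markers of other liver cells moved with the groups too. The sum of 4 cholangiocyte markers, mostly Sox9, was 20.9 to 23.8 CPM in control, 58.0 to 74.3 with FAC, 12.4 to 15.6 with Lip-1+FAC and 17.1 to 20.1 with MT+FAC. That of 6 Kupffer cell and macrophage markers, mostly Cd68, was 219.7 to 251.4, 284.8 to 318.1, 112.5 to 142.8 and 139.7 to 170.4 CPM. The Kupffer cell gene Clec4f lay at 0.825 to 1.49 CPM in control, 0.365 to 0.689 with FAC, 0.592 to 1.16 with Lip-1+FAC and 0.750 to 1.38 with MT+FAC, every FAC library being below every control library. Cd5l, of the same list, lay the other way, at 0.0427 to 0.637 CPM in control and 0.767 to 1.09 with FAC, and Adgre1, Vsig4 and Csf1r overlapped between these groups. The sum of 5 endothelial markers, mostly Stab2, was 34.5 to 35.9 CPM in control, 33.3 to 34.2 with FAC, 24.7 to 26.5 with Lip-1+FAC and 25.5 to 29.5 with MT+FAC. Stab2 lay at 26.2 to 29.3 CPM in control and 15.7 to 19.6 with Lip-1+FAC, whereas Pecam1 overlapped between these groups and Kdr lay at 0.470 to 1.38 and 1.36 to 2.80 CPM. The 4 leukocyte markers were each under 1 CPM, Cd3e at 0. The sum of 6 stellate cell markers was 9.27 to 14.3 CPM in control, 18.9 to 19.6 with FAC, 7.89 to 9.18 with Lip-1+FAC and 9.06 to 9.80 with MT+FAC. Of these, Reln lay at 5.84 to 8.92 CPM in control and 15.9 to 16.2 with FAC. Dcn lay the other way, at 2.80 to 4.70 CPM in control and 2.22 to 2.58 with FAC, and Lrat, Des and Pdgfrb were under 1 CPM. The share of mitochondrially encoded counts was 0.954% to 1.21% in control, 1.15% to 1.23% with FAC, 0.717% to 0.798% with Lip-1+FAC and 0.639% to 0.711% with MT+FAC. The part of these shifts in the results on the 8 genes was not tested.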

How the data were processed

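The authors deposited raw counts of reads per gene for 12 libraries, in the layout of the aligner STAR, aligned to GRCm38 per the submitters' processing notes. The STAR version and the annotation are not given in the sources used here. Per the labels' protocols, cDNA was made with SMART-Seq v4 and libraries with Nextera XT, without molecular identifiers being mentioned, so that reads are not independent molecules. The unstranded count column was used, since the kits do not mark strand. Rows that name no gene stayed out of library sizes and tests; 75.8% to 81.2% of listed reads were assigned to genes. Groups came from the sample titles. Names, positions and lengths came from GENCODE M21, which matched 55227 of 55487 identifiers, and near-identical copies were searched among its transcripts at an identity of at least 95% over at least 200 bases.

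Counts were tested with edgeR 4.0.16 in R 4.3.3: filterByExpr, TMM scaling, robust quasi-likelihood F tests over all 12 libraries with 4 group means, two-sided p-values adjusted by Benjamini-Hochberg over 13535 genes, and a threshold of 0.05. Standard errors are the log2 fold change over the square root of F. CPM values are the counts scaled to a common size after TMM. Alternatives changed the scaling, the low-count filter, the counting columns, the depth (thinning), GC content and length (offsets), the libraries fitted, the replicate term and the tool (DESeq2 1.42.0). The test was checked on simulated data: 53.5% of genes given a simulated log2 change of 0.5 between control and FAC, among 12675 genes, were recovered, with false calls at 8.55% of all calls made, above the threshold of 0.05. Only control and FAC libraries were simulated, with few genes changed. The test itself used all 12 libraries and called 36.6% of genes in FAC against control, so that these rates need not hold for it. The members and the gene and marker lists were chosen with earlier results of these data known. All 8 members are named, and from each further list up to 3 called genes with a mean of at least 5 CPM in each comparison, by size of change. Mms19 and Fdx2 are named beside these. A few genes of the further lists are not reported here.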

Additional observations from a re-analysis of the deposited data

How the results depend on the processing

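Each result was recomputed under 17 alternatives. Of 48 values for the 8 genes, 30 kept their call or lack of one throughout, and 8 of the 19 that were called kept it in every alternative: Slc25a37 against control in 3 comparisons, Isca2 with FAC and with Lip-1+FAC against control, Nfs1 with either scavenger against FAC alone, and Glrx5 with MT+FAC against FAC alone. Hscb was not tested at a mean of at least 5 CPM. Of 73 values for genes of the other lists named by size of change, 39 were kept. On leaving out 1 library in turn, edgeR called from 3 to 7 of the members in FAC against control (3 without FAC replicate 1), from 2 to 5 in Lip-1+FAC against control (2 without Lip-1+FAC replicate 1; 3 without control replicate 1 or 3 or Lip-1+FAC replicate 2 or 3) and from 1 to 4 in MT+FAC against control (1 without control replicate 1 or 3 or any MT+FAC replicate). With no filter on low counts, with offsets for GC content and length, alone or with a replicate block, and with only the groups compared, 2 were called in Lip-1+FAC against FAC alone and 3 in Lip-1+FAC against control. In MT+FAC against Lip-1+FAC, 182 genes were called, 477 with no filter, 312 with only the groups compared, 437 with DESeq2, and 74 to 156 on leaving out 1 library (76 and 77 without Lip-1+FAC replicates 1 and 2, 86 and 74 without MT+FAC replicates 2 and 3).

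With offsets for GC content and length, and with these offsets plus the replicate block, some values changed sign: Ndufs7 to 0.025 and 0.029 (Lip-1+FAC against FAC) and to 0.017 and 0.021 (MT+FAC against FAC), Iscu to 0.010 in both (Lip-1+FAC against control), and Fech to -0.025 and -0.026 (Lip-1+FAC against control) and -0.023 in both (MT+FAC against control). The cause was not tested. A further 29 sign changes concern values called in neither fit and are not counted as reversals. Of 18 same-numbered pairs of replicates, 3 had a correlation of their deviations from the group mean over 0.1 (-0.249 to 0.164). With 3 libraries in each group, this cannot show whether the numbers pair the samples. With the replicate block alone, edgeR called 5 of the members in FAC against control, 1 and 3 against FAC alone, 0 between the scavengers, and 4 and 3 against control.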
